A study of Mus musculus with 18 samples.

Results

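The data described here are RNA sequencing libraries of astrocytes sorted from the brains of Tgfb1 knockout (KO) mice and of control mice, 4 KO and 5 control libraries out of the 18 libraries of the series. KO mice carried the Cx3cr1CreERT2 driver and Tgfb1 fl/fl alleles, and controls carried Cx3cr1CreERT2 alone, all on C57BL/6. Tamoxifen, which turns the Cre enzyme on, went to every mouse by gavage, 180 mg/kg per dose and 5 doses. Cx3cr1CreERT2 is active in microglia and other Cx3cr1-expressing macrophages, so the astrocytes of KO mice were neighbours of the targeted cells and not themselves the target. The labels give neither sex nor age. Cells were freed with enzymes in the presence of inhibitors and sorted by flow cytometry. Libraries were chosen by their labels, and genes entered the comparison when they reached 1 TPM (transcript level scaled for gene length and library size) in at least 4 of the 9 libraries, which kept 15231 of the 35869 genes listed. Each library is 1 mouse by its label, so p-values measure the spread between these mice.

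Astrocytes take up glutamate and potassium around synapses, supply neurons with lactate and cholesterol, and respond to signals from microglia. TGF-beta made by microglia acts on the microglia themselves and holds them in a resting state, and astrocytes carry receptors for it as well. Interferon-stimulated genes are switched on through the interferon receptors and transcription factors such as STAT2 and IRF9, which bind the interferon-stimulated response element in promoters. USP18 is one of their products: it removes the ubiquitin-like protein ISG15 from other proteins and also binds the receptor subunit IFNAR2, where it dampens further signalling.

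Tgfb1 was at or near 0 in the astrocyte libraries, with 0, 0, 0.1, 0.1 and 0 TPM in the controls and 0.3, 0.2, 0 and 0.1 TPM in the KO mice (exact two-sided permutation test on log2(TPM + 1), p = 0.230 over 126 assignments). The deletion can therefore not be read in these libraries. In the microglia of the same mice it averaged 3.00 TPM in controls and 1.70 TPM in KO mice, over 4 libraries each. The astrocyte markers Slc1a2, Aldoc and Gfap were high in all 9 libraries, for example Slc1a2 at 190.8 to 426.3 TPM. The microglial marker P2ry12 was at 6.7 to 14.7 TPM in these libraries. In microglia it was at 3440.6 to 4100.6 TPM in controls and only 206.2 to 265.4 TPM in KO mice. P2ry12 is therefore a weaker measure of microglial RNA in the KO astrocyte libraries. RNA of other cells was present and uneven. KO library 1 had the highest levels of microglial markers (C1qb 270.1 TPM, against 21.9 to 70.0 TPM in the other KO and 9.2 to 44.4 TPM in the control libraries), KO libraries 1 and 3 of mural and endothelial markers (vessel wall cells), and KO library 4 of oligodendrocyte markers. Control libraries 1 and 2 had the lowest mural levels, and they alone among the controls had Xist RNA, as all KO libraries did. In bulk libraries, fewer cells of a type and less RNA per cell cannot be told apart. The part of these differences in the gene results was not tested beyond the values given beside them.

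Usp18 was the 1 gene that passed the adjusted threshold when the 9 astrocyte libraries were fitted alone. It was at 7.6, 6.4, 10.6, 9.4 and 13.1 TPM in the control libraries and at 69.9, 67.7, 83.7 and 40.4 TPM in the KO libraries. The lowest KO library lay more than 3-fold above the highest control, and the controls with Xist RNA, 7.6 and 6.4 TPM, were the lowest of all. Usp18 rose from 9.42 ± 2.62 TPM (SD, n = 5) to 65.4 ± 18.1 TPM (SD, n = 4), a log2 fold change of 2.66 (SE 0.24, 95% interval 2.12 to 3.20, limma adjusted p = 0.00913). The gene lies at chr6:121245906-121270917 on the plus strand (mm10, GENCODE M21), and values are for the whole gene, with no split by exon. At this threshold 1 of 15231 genes was called higher (0.00657%) and 0 lower, with 1939 genes at an unadjusted p under 0.05. The limma adjusted p was 0.0535 without control library 1, 0.0758 without KO library 1, 0.0539 without KO library 3 and 0.268 without KO libraries 1 and 3 together, while the log2 fold change stayed between 2.36 and 3.01 in every alternative that ended the call.

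**Figure D1:**
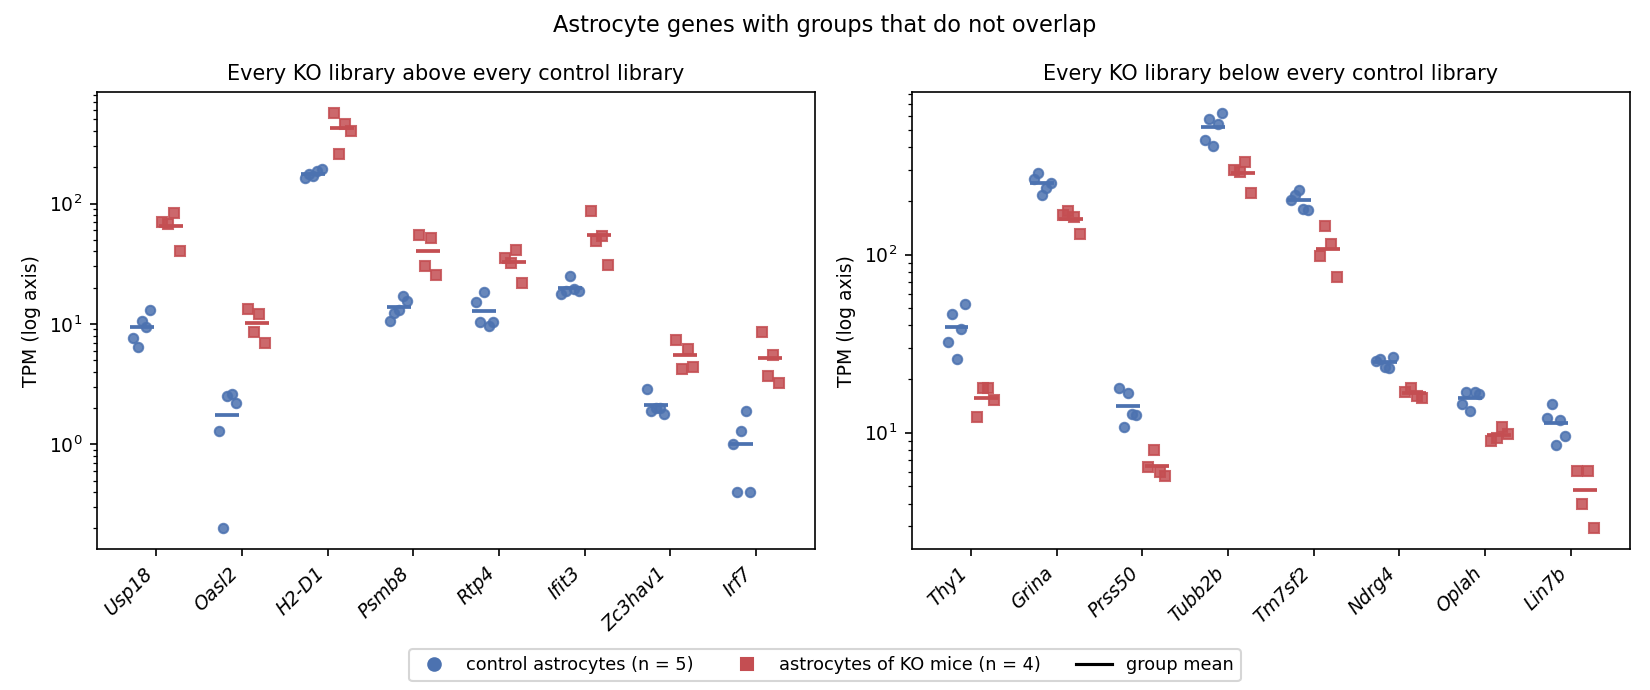
TPM on log axes of the 8 higher (left) and 8 lower (right) genes with the smallest p among non-overlapping genes whose higher group averaged 5 TPM or more, with circles for the 5 control libraries, squares for the 4 KO libraries and lines for group means. The lack of overlap is how they were chosen, and Usp18 alone passed the adjusted threshold, at 6.4 to 13.1 TPM in controls and 40.4 to 83.7 TPM in KO libraries.

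Other interferon-stimulated genes had higher values in KO astrocytes too. Of 51 such genes on a list chosen with earlier results of these data known, 44 passed the filter on low values, all 44 had a higher mean in KO astrocytes, and in 18 every KO library lay above every control library. Over all genes tested, 2.94% had every KO library above every control. The median log2 fold change of the 44 genes was 0.96, against 0.07 for all genes, and 10 of the 50 genes with the smallest p were on the list. Except for Usp18, 0 of the 44 passed the adjusted threshold, while 35 had an unadjusted p under 0.05, against 8.38% of all genes in that direction. When spread was estimated over both cell types in 1 fit, 88 of 17087 genes were called in astrocytes (0.515%), 63 higher and 25 lower, and 13 of the 63 were on this list.

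The antiviral effectors act on viral RNA or on budding virus. Ifit3, which binds foreign RNA together with its relatives, was at 17.7, 18.7, 25.0, 19.5 and 18.8 TPM in controls and 86.6, 49.0, 53.9 and 30.8 TPM in KO libraries (log2 fold change 1.34, SE 0.25, limma adjusted p = 0.221). Ifit1, its partner, was at 21.6, 0.1, 15.1, 10.6 and 19.4 TPM in controls and 83.4, 63.0, 66.3 and 45.7 TPM in KO libraries. Control library 2 lies far under the other controls for Ifit1 and not for Ifit3, and in both genes the groups do not overlap. Oasl2, a relative of the oligoadenylate synthetases that sense double-stranded RNA, was at 1.3, 0.2, 2.5, 2.6 and 2.2 TPM in controls and at 13.4, 8.6, 12 and 6.9 TPM in KO libraries (log2 fold change 2.09, SE 0.34, limma adjusted p = 0.221). Bst2, or tetherin, which holds budding virus at the cell surface, was at 17.8, 11.9, 25.3, 26.5 and 25.5 TPM in controls and 98.6, 40.9, 76.1 and 34.9 TPM in KO libraries. Rtp4, a chaperone of receptors at the membrane that interferon induces, was at 15.1, 10.3, 18.3, 9.6 and 10.4 TPM in controls and at 35.5, 32.2, 41.4 and 21.9 TPM in KO libraries (log2 fold change 1.30, SE 0.23, limma adjusted p = 0.221). KO library 4 was the lowest KO library for Ifit3, Ifit1, Oasl2, Bst2 and Rtp4, as it was for Usp18. Zc3hav1, the zinc finger antiviral protein, was not on the list and did not overlap either, at 2.9, 1.9, 2.0, 2.0 and 1.8 TPM in controls and 7.3, 4.2, 6.2 and 4.4 TPM in KO libraries (log2 fold change 1.05, SE 0.20, limma adjusted p = 0.221).

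USP18 works against a conjugation pathway whose genes were on the list. Isg15, the modifier itself, was at 10, 3.3, 8.3, 4.7 and 11.1 TPM in controls and at 38, 13.5, 29.3 and 15.7 TPM in KO libraries (log2 fold change 1.55, SE 0.38), with no overlap. Its activating enzyme Uba7 and conjugating enzyme Ube2l6 had means of 4.08 and 9.54 TPM in controls and 9.62 and 27.7 TPM in KO libraries, but their groups overlapped, and KO library 2 was within the controls for both. The interferon-induced GTPases, which attack the membranes around pathogens inside a cell, had Gbp2 at 0.9, 2.3, 6.2, 16.4 and 11.3 TPM in controls and 36.9, 19.8, 39.1 and 20.5 TPM in KO libraries. Gbp3, Irgm2 and Iigp1 did not overlap either, with log2 fold changes of 1.35, 1.00 and 1.82.

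The factors that carry the response came next. Irf7, which amplifies interferon production, was at 1.0, 0.4, 1.3, 1.9 and 0.4 TPM in controls and 8.6, 3.7, 5.5 and 3.2 TPM in KO libraries (log2 fold change 1.62, SE 0.31, limma adjusted p = 0.221). Irf9 and Stat2, which act together on the response element, overlapped, at 14.5 and 25.7 TPM and at 7.62 and 9.5 TPM in control and KO means. At the other end of the list, Lgals3bp, Eif2ak2, Dhx58, Ifi27 and Herc6 had log2 fold changes of 0.03 to 0.28. Upstream of these factors the list of interferon receptors, kinases and regulators had 13 tested genes, none called or without overlap, and a median of 0.13. Ifnar1, a subunit of the type I receptor, averaged 52.5 ± 4.91 TPM (SD, n = 5) in controls against 53.4 ± 4.74 TPM (SD, n = 4) in KO libraries. Its log2 fold change was 0.03 (95% interval -0.21 to 0.26). Ifnb1 was listed at 0 in all 9 libraries.

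**Figure D2:**
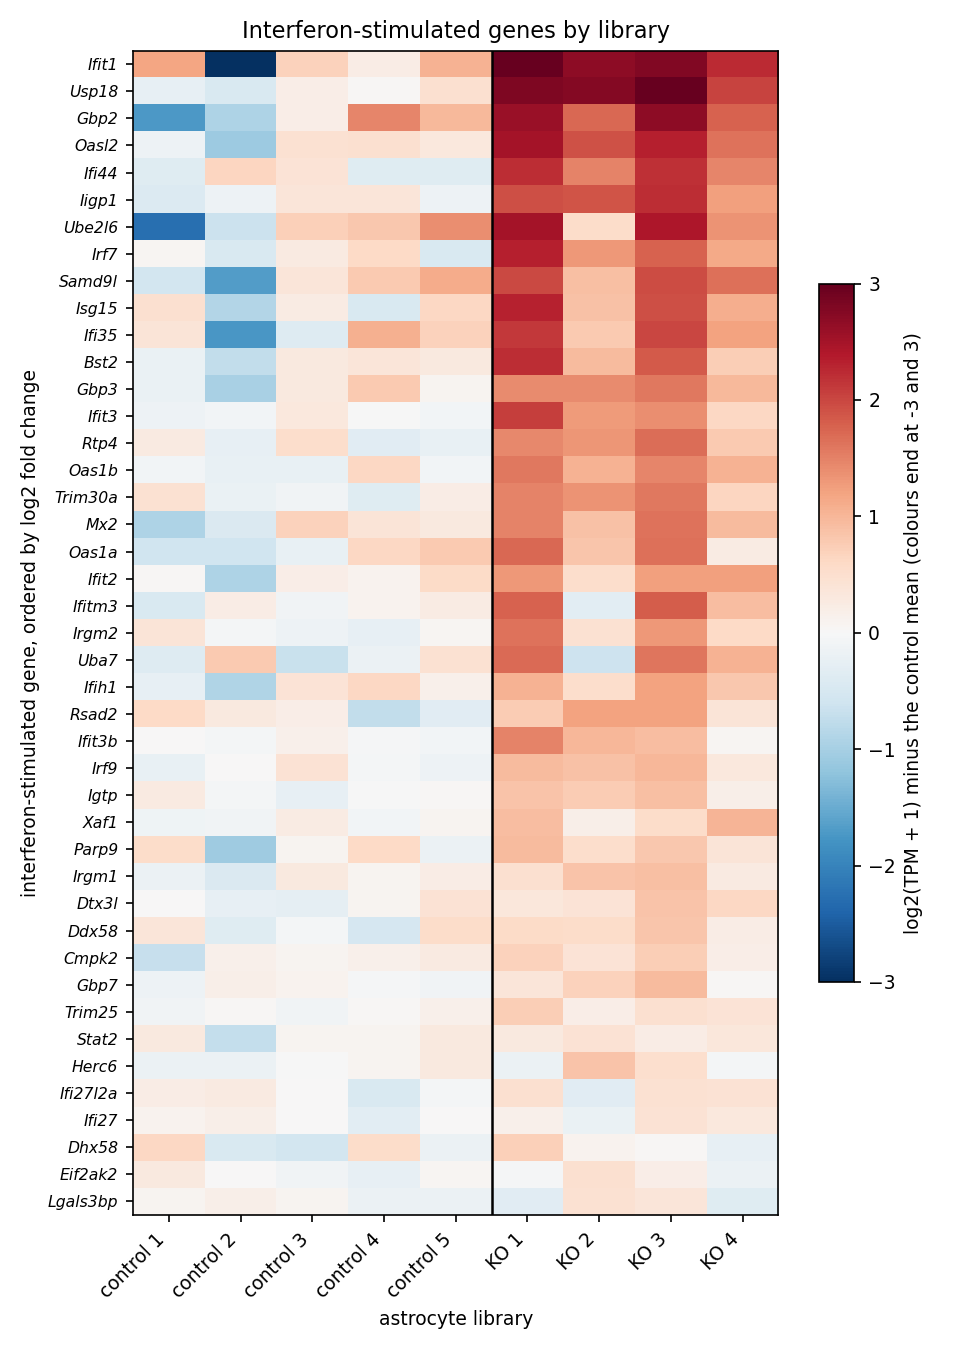
Tested interferon-stimulated genes, 43 of the 44 (rows), in the 9 astrocyte libraries (columns), as log2(TPM + 1) minus the mean of the 5 controls, with colours that end at -3 and 3. KO libraries 1 and 3 have 39 and 41 of all 44 genes above every control, and KO libraries 2 and 4 have 30 and 29, where 22.4, 22.8, 20.0 and 25.4% of all genes tested are above every control in KO libraries 1, 3, 2 and 4.

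Promoter sequence is shown for 8 genes of the list whose groups did not overlap and whose window held a match to the motif searched. Such letters are what the factors of the response recognise. In all, 18 genes of the list had no overlap, and the rest of these are not shown. Among them, Oasl2, Rtp4, Irf7 and Iigp1 had no window or no match. The motif searched was GAAA, any 2 bases and GAAA again, on both strands, in the 250 bases before the start of each gene in RefSeq windows (GRCm38.p6, the assembly of mm10). Of the 44 genes 34 had a window and 15 of these (44.1%) held a match, against 324 of 10599 tested genes with a window (3.06%). The list holds genes known to respond to interferon, so this share describes the list and not the KO effect. Overlapping matches are shown as 1 run of capitals, and a match is a description of the letters. Usp18 itself had no window. Each stretch is given on the strand of its gene, 5′ to 3′, ends before the start, and has the matching bases in capitals, where TTTC, any 2 bases and TTTC is the same motif on the other strand.
Ifit1 chr19:34640755-34640843 (plus strand): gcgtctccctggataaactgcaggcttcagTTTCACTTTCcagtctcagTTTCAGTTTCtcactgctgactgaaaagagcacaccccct
Ifit3 chr19:34583343-34583446 (plus strand): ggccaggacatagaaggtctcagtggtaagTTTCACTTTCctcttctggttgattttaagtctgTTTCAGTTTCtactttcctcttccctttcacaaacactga
Isg15 chr4:156200845-156200926 (minus strand): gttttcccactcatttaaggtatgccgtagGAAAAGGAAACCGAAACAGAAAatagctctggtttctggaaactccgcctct
Bst2 chr8:71537557-71537632 (minus strand): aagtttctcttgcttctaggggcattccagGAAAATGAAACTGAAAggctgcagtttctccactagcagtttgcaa
Gbp2 chr3:142620574-142620643 (plus strand): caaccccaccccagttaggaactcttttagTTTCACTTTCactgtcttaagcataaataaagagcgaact
Gbp3 chr3:142559969-142560043 (plus strand): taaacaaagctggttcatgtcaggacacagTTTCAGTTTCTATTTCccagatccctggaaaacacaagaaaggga
Irgm2 chr11:58214883-58214952 (plus strand): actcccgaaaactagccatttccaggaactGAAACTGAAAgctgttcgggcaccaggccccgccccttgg
Trim30a chr7:104465194-104465259 (minus strand): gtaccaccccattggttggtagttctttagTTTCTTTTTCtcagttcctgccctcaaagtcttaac
The matches in Ifit1 and Ifit3 come as 2 separate copies, those in Bst2 and Gbp3 as 2 overlapping copies and those in Isg15 as 3 overlapping copies. They lay between 27 and 156 bases before the start in these 8 genes.

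Class I molecules show peptides from inside the cell to T cells. The median log2 fold change of 19 tested genes of this route was 0.12, and in 3 of them every KO library lay above every control, where 2.94% of all genes did. H2-D1, a classical class I heavy chain, was at 161.7, 174.8, 170.8, 185.8 and 194.0 TPM in controls and 567.7, 255.7, 462.4 and 404.2 TPM in KO libraries (log2 fold change 1.19, SE 0.20, limma adjusted p = 0.221). Psmb8, a subunit of the immunoproteasome that cuts peptides for class I molecules, was at 10.6, 12.3, 13, 17.1 and 15.5 TPM in controls and at 54.6, 30.5, 51.8 and 25.4 TPM in KO libraries (log2 fold change 1.44, SE 0.24, limma adjusted p = 0.221). B2m, the light chain, was at 561.5, 452.3, 588.3, 583.4 and 499.4 TPM in controls and at 1386.2, 612.8, 945.6 and 788.3 TPM in KO libraries. In all 3 genes KO library 1 was the highest. H2-K1, Tap2, Psmb10 and Psme1, of the same route, had log2 fold changes between -0.15 and 0.03. H2 genes are close relatives, and how reads shared between them were counted is not given in the sources used here, so the split between H2-D1 and H2-K1 is uncertain, as is that between Ifit3 and Ifit3b. Class II genes had a higher median, 1.45 over 7 tested genes, but all 7 overlapped: H2-Aa was at 0.4, 14.7, 1.4, 6.1 and 21.3 TPM in controls and 124.3, 14.7, 37.1 and 29.6 TPM in KO libraries, high in the library with the most microglial RNA and no higher in KO library 2 than in control library 2.

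In KO library 2 the mean levels of microglial, border macrophage, endothelial, mural, oligodendrocyte and neuronal markers were all within those of the controls. The genes with large rises in KO microglia in an earlier analysis were not: their mean log2(TPM + 1) there was 3.73, against 2.70 to 3.35 in the controls, with Ms4a7 at 1.5 TPM (controls at most 0.3) and Cd300ld at 1.2 TPM (controls at most 0.1). In KO library 2 0 of 17 mural, 2 of 19 microglial and 3 of 17 oligodendrocyte markers were above every control, and 20.0% of all genes tested were. Of the interferon-stimulated genes 30 of 44 (68.2%) were above every control there. KO library 1 had 15 of 17 mural, 17 of 19 microglial and 39 of 44 interferon-stimulated genes above every control, and 22.4% of all genes. C1qb was 12.3-fold higher in KO library 1 than in KO library 2, and Usp18 was at 69.9 and 67.7 TPM in those libraries. Without KO libraries 1 and 3 the median of the 44 genes was 0.59, without KO library 1 and control libraries 1 and 2 it was 0.69, and with the mural, endothelial or microglial marker level as a covariate it was 0.57, 0.70 and 0.86.

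**Figure D3:**
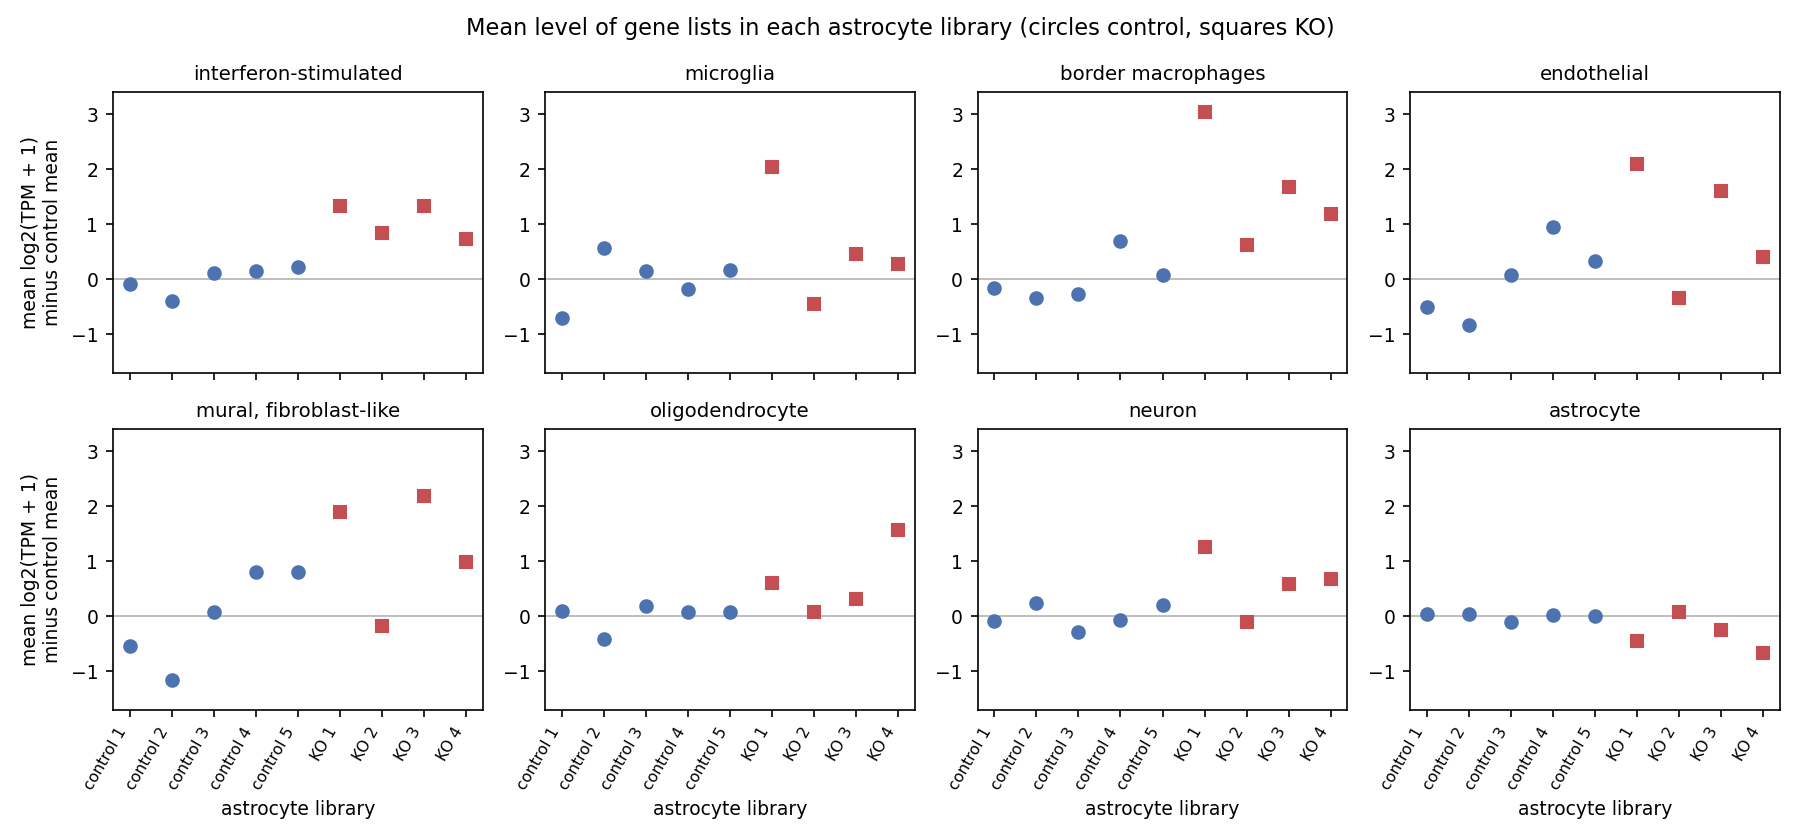
Mean log2(TPM + 1) of 8 gene lists in each astrocyte library, minus the mean of the 5 controls (circles control, squares KO). The interferon-stimulated list is above every control in all 4 KO libraries, and the 6 lists of other cells' markers drawn are within the controls in KO library 2.

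The level in astrocytes was set beside that in microglia of the same mouse. Usp18 in the astrocytes of KO mice 1 to 4 was 33.9, 25.1, 33.1 and 20.1% of its level in their microglia, where it averaged 232 TPM. Oasl2 was at 10.5 to 22.8%, Rtp4 at 8.96 to 16.0% and Ifit3 at 28.3 to 90.8%. The median over the 44 interferon-stimulated genes was 22.2% in KO mice and 30.03% in controls, taken from group means. Microglial markers were lower by this measure: C1qb was at 2.10, 0.17, 0.49 and 0.31%, and the median over 19 such markers was 0.719% in KO mice and 0.145% in controls. The levels in microglia themselves changed with genotype. Their median log2 fold change in microglia was 1.53 over the 44 interferon-stimulated genes and -1.29 over the 19 markers. KO and control percents therefore do not compare the levels in astrocytes alone. Genes with large rises in KO microglia in an earlier analysis of these data had a median of 1.05% over 9 tested members, with Apoe at 37.7 to 62.2% and Ifitm3 at 5.6 to 24.2%, both well expressed in control astrocytes. Mmp13, a collagenase, was at 1.5, 0.19, 0.23 and 0.24% and Ms4a7, a macrophage membrane protein, at 1.67, 0.15, 0.31 and 0.27%.

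**Figure D4:**
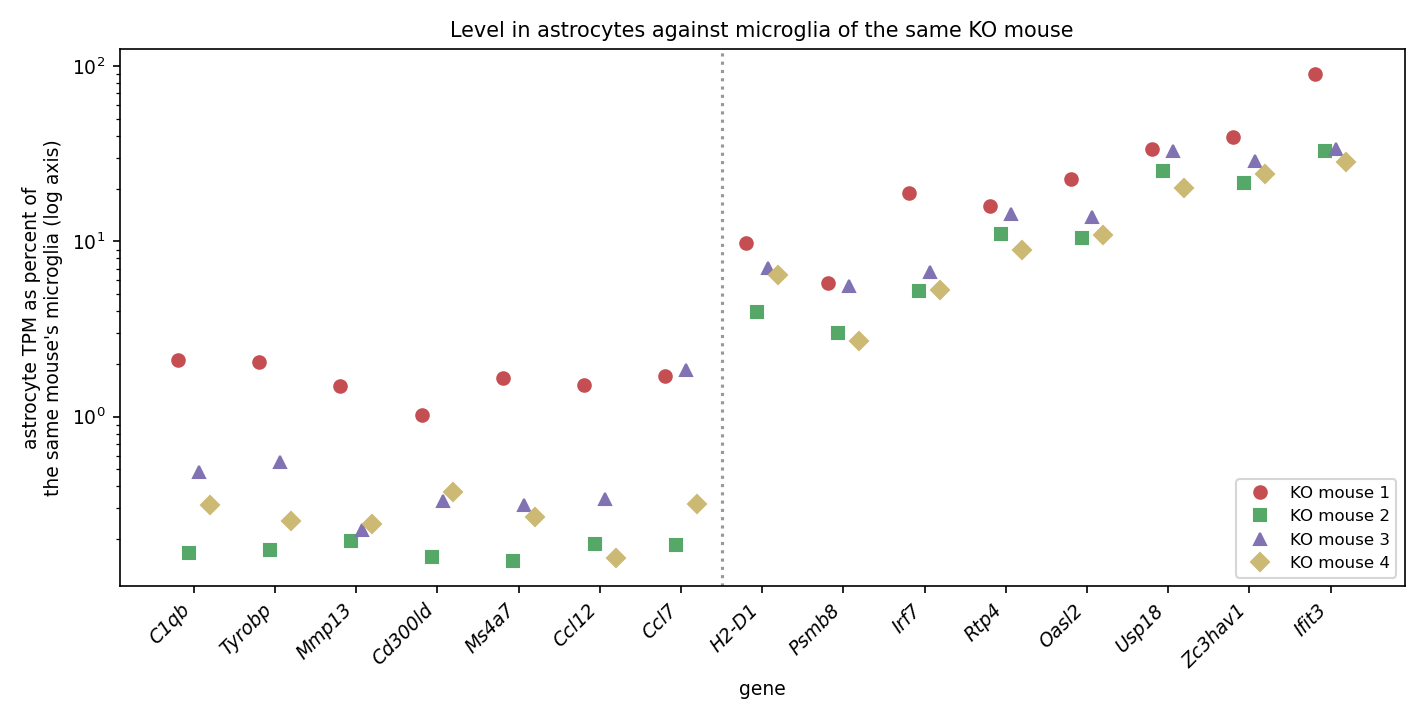
TPM in astrocytes as a percent of TPM in the microglia of the same KO mouse, on a log axis, for 7 microglial genes (left of the dotted line) and 8 genes higher in KO astrocytes (right). The microglial genes are at 0.15 to 2.10%, and Usp18 is at 20.1 to 33.9% in the 4 mice.

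Chemokines draw immune cells. Of 18 tested cytokine and chemokine genes 2 had every KO library above every control, where 2.94% of all genes did. Ccl12, a ligand for monocyte receptors, was at 0, 0, 1.3, 8.0 and 5.5 TPM in control astrocytes and at 125.5, 13.6, 24.3 and 11.2 TPM in KO astrocytes, and Ccl7, another, was at 0 to 2.2 TPM and at 28.1, 2.8, 23.3 and 3.4 TPM. Both genes were highest in KO libraries 1 and 3, and in KO mouse 2 both were at 0.19% of the level in microglia. Cxcl10, which interferon induces in astrocytes, had another order, with 5.9, 15.1, 12.7 and 10.4 TPM in KO libraries against 7.4, 7.5, 2.8, 3.9 and 1.0 TPM in controls (log2 fold change 1.25, limma adjusted p = 0.336). KO library 1, the highest for Ccl12, was the lowest KO library for Cxcl10, and it lay within the controls.

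Whether the KO effect differed between the cell types was tested as the difference of the 2 log2 fold changes in 1 fit over 17 libraries, in which 2648 of 17087 genes passed, 8.87% with a larger and 6.63% with a smaller value in astrocytes. For Usp18 the log2 fold change was 2.66 in astrocytes and 2.55 in microglia, a difference of 0.11 (SE 0.31, 95% interval -0.54 to 0.77, limma adjusted p = 0.859), whose sign turned with a pseudocount of 5 TPM (-0.17). Of the 44 interferon-stimulated genes 18 had a smaller and 2 a larger effect in astrocytes. Ifit3 was among the smaller, with 1.34 in astrocytes and 2.92 in microglia (difference -1.58, SE 0.36, limma adjusted p = 0.00616), and so was Rtp4, with 1.30 and 2.35 (difference -1.05, SE 0.28, limma adjusted p = 0.0184). Oasl2, Irf7 and Iigp1 were also smaller in astrocytes (differences -1.73, -1.78 and -2.06), but these genes are low in astrocytes and the calls ended with a pseudocount of 0.1 TPM. The larger effects were in Irgm2 and Igtp, GTPases of 1 family. Irgm2 had 1.00 in astrocytes and -0.35 in microglia. Off the list, Psmb8 was larger in astrocytes, with 1.44 and 0.43 (difference 1.01, SE 0.27, limma adjusted p = 0.0180).

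Cholesterol for neuronal membranes is made in large part by astrocytes. Of 23 tested genes of the pathway 22 had a lower mean in KO astrocytes, and in 7 every KO library lay below every control, where 1.46% of all genes did. The median log2 fold change was -0.55, and none passed the adjusted threshold, while 20 had an unadjusted p under 0.05, against 4.35% of all genes in that direction. Tm7sf2, a sterol reductase late in the pathway, was at 203.5, 217.1, 231.9, 180.3 and 178.7 TPM in controls and 98.4, 144.1, 114.1 and 74.7 TPM in KO libraries (log2 fold change -0.93, SE 0.17, limma adjusted p = 0.221). Fdft1, squalene synthase, was at 145.7, 189.2, 196.5, 147.6 and 167.9 TPM in controls and at 77.6, 135.3, 100 and 88.6 TPM in KO libraries. In both genes KO library 2 was the KO library closest to the controls.

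The low values were spread over the steps of the pathway. Fdps, Dhcr7, Pmvk and Stard4 were among the other genes without overlap, with control and KO means of 361 and 239, 59.6 and 40.95, 136 and 85.7, and 18.2 and 11.7 TPM. Msmo1, a sterol demethylase, was at 3822.4 to 4534.8 TPM in controls and at 1919.9, 4097.0, 2735.1 and 2226.1 TPM in KO libraries. KO library 2 was within the controls for Msmo1 and the other KO libraries were below them. Below every control were 20, 10, 20 and 18 of the 23 genes in KO libraries 1 to 4. Over all genes tested 18.4, 12.3, 7.52 and 17.9% were below every control in these libraries. KO library 2 had the smallest count. Without KO libraries 1 and 3 the median was -0.38, with the mural or endothelial marker level as a covariate -0.33 and -0.37. The sterol regulatory element TCACNCCAC was in the 250 bases before the start in 1 of 16 genes with a window, Hmgcs1, and in 1.22% of tested genes. For Tm7sf2 the effects in the 2 cell types differed, with -0.93 in astrocytes and 0.46 in microglia (difference -1.39, SE 0.28, limma adjusted p = 0.00236).

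Other genes lay below the controls in every KO library. Thy1, a surface glycoprotein of neurons and some glia, was at 32.5, 46.5, 25.8, 38.1 and 52.7 TPM in controls and 12.2, 17.8, 17.8 and 15.2 TPM in KO libraries (log2 fold change -1.23, SE 0.21, limma adjusted p = 0.221). Tubb2b, a tubulin, was at 437.4, 578.6, 406.7, 537.7 and 625.3 TPM in controls and at 298.5, 292.6, 329.3 and 220.5 TPM in KO libraries (log2 fold change -0.85, SE 0.16). Grina, a glutamate receptor-associated membrane protein, was at 265.0, 285.7, 216.9, 237.3 and 251.2 TPM in controls and at 167.0, 174.8, 163.3 and 131.1 TPM in KO libraries (log2 fold change -0.66, SE 0.12). For Thy1, Tubb2b and Grina KO library 2 was not set apart from KO libraries 1 and 3. Ndrg4, of a family of cytoplasmic proteins found in brain, was at 25.2, 25.9, 23.4, 23 and 26.7 TPM in controls and at 16.9, 17.8, 16.1 and 15.6 TPM in KO libraries. Prss50, Oplah (5-oxoprolinase, of glutathione turnover) and Lin7b (a scaffold at synapses) had control means of 14.1, 15.6 and 11.3 TPM and KO means of 6.53, 9.70 and 4.78 TPM.

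Astrocyte markers had lower means in most cases. Of 30 astrocyte markers 27 had a lower mean in KO libraries, the median log2 fold change was -0.32, and none was called. In 6 of them every KO library lay below every control, where 1.46% of all genes did. Below every control were 22, 7, 20 and 26 of the 30 in KO libraries 1 to 4, against 18.4, 12.3, 7.52 and 17.9% of all genes. In KO library 2 11 of the 30 were above every control, against 20.0% of all genes. Gfap, the intermediate filament that marks reactive astrocytes, was at 210.8, 197.4, 189.1, 190.9 and 187.7 TPM in controls and 126.2, 210.8, 169.4 and 110.4 TPM in KO libraries (log2 fold change -0.38, SE 0.17, limma adjusted p = 0.392). Slc1a2, the main glutamate transporter, was at 337.3, 310.5, 340.4, 335.0 and 377.6 TPM in controls and at 190.8, 426.3, 315.3 and 241.0 TPM in KO libraries (log2 fold change -0.27, SE 0.20, limma adjusted p = 0.565). Aldoc, a glycolytic aldolase, was at 4449.6, 5050.2, 3752.1, 4175.5 and 4233.0 TPM in controls and at 3348.2, 4560.7, 3560.9 and 2637.3 TPM in KO libraries (log2 fold change -0.32, SE 0.15, limma adjusted p = 0.408). The groups overlapped in all 3 genes: KO library 2 was level with the highest control for Gfap, within the controls for Aldoc and above every control for Slc1a2. KO library 4 was the lowest for Gfap and Aldoc and KO library 1 for Slc1a2. KO library 4 was also the highest in oligodendrocyte markers, with Mbp at 413.8 TPM against 98.4 to 185.2 TPM elsewhere. With the oligodendrocyte marker level as a covariate the median of the 30 markers was -0.08, and without KO library 2 it was -0.50. With the mural, microglial or endothelial marker level as a covariate it was -0.20, -0.23 and -0.22.

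The 6 markers without overlap had log2 fold changes of -0.88 to -0.61. Cldn10, a claudin, had means of 441 and 264 TPM in control and KO libraries, Clu, the apolipoprotein clusterin, 3493 and 2231 TPM, and Bcan, the matrix proteoglycan brevican, 260 and 171 TPM. Mfge8, which tags dying cells for uptake, Cst3, a protease inhibitor, and Ntsr2, a neurotensin receptor, were the others. Slc1a3, Sox9, Slc4a4 and Slc7a10 had log2 fold changes of -0.07 to 0.05. In glutamate and GABA handling 0 of 18 genes were called or without overlap (median -0.16), and likewise 0 of 17 genes of the water channel, gap junctions and ion channels (median -0.11). Aqp4 was at 118.4 to 137.6 TPM in controls and at 124.5, 166.4, 96.3 and 72.9 TPM in KO libraries.

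Astrocytes near injury or inflammation turn on sets of reactive genes. The general list had a median of 1.01 over 10 tested genes, with 0 of them free of overlap. Steap4, S1pr3, Cp and Hspb1 were high in KO libraries 1 and 3 and within or below the controls in KO library 2, for example S1pr3, a lipid receptor, at 8.2 to 91.9 TPM in controls and 190.0, 20.1, 289.0 and 121.5 TPM in KO libraries. The mural marker Rgs5 had the same order, at 2791.0, 380.0, 4290.4 and 1618.5 TPM, and the median of the list was 0.11 when mural markers entered the fit as a covariate. With endothelial, oligodendrocyte or microglial markers as the covariate it was 0.20, 0.70 and 0.72. Osmr, the oncostatin M receptor, was at 1.5 to 5.2 TPM and at 6.1, 6.4, 8.9 and 4.4 TPM. Serpina3n, Cd44 and Vim had log2 fold changes of -0.09, 0.07 and 0.44, and Vim was high in KO library 1 alone (315.4 TPM, against 55.2 to 95.9 TPM in the other libraries). Of the 12 tested genes reported after lipopolysaccharide 4 had every KO library above every control, where 2.94% of all genes did. These were Iigp1, H2-D1, Psmb8 and Gbp2, all counted above on the interferon-stimulated or class I lists. C3, a defining gene of the lipopolysaccharide list, was under the filter.

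TGF-beta ligands bind receptors that act through SMAD proteins. Among 17 tested ligands, receptors and activators the median was 0.10 and 1 gene was free of overlap, where 4.40% of all genes were. A count of 1 in 17 is not read as a result about the list. The gene was Tgfbr1, the type I receptor, at 4.0, 4.4, 6.0, 6.7 and 6.2 TPM in controls and 7.0, 8.0, 7.0 and 8.4 TPM in KO libraries (log2 fold change 0.43, SE 0.17, limma adjusted p = 0.364). Tgfb2, a ligand, was at 25.4 and 22.4 TPM in control and KO means. Of 21 SMADs and TGF-beta-induced genes none was called or without overlap, and the median was 0.22. Smad7, the feedback inhibitor, was at 5.78 and 8.22 TPM. Its log2 fold change in astrocytes minus that in microglia was 2.55 (limma adjusted p = 0.000319). Such differences are signed, so a positive value need not mean a stronger effect in astrocytes. Tagln and Tgfbi, which had the smallest p of the list, overlapped between the groups. Tagln was at 16.4, 5.7, 14.1 and 7.6 TPM in KO libraries, highest in libraries 1 and 3 as the mural markers were, and Tgfbi was at 28.6, 8.2, 27.3 and 24.2 TPM.

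Astrocytes turn glucose into lactate. Glycolytic enzymes had a median of -0.32 over 21 tested genes, with 4 below every control (Gapdh, Tpi1, Aldoa and Pkm) and Slc16a1, a lactate transporter, above. Over all genes tested 1.46% had every KO library below every control and 2.94% above. Gapdh was at 273.7 to 346.1 TPM in controls and at 216.7, 257.8, 231.8 and 192.3 TPM in KO libraries (log2 fold change -0.46, SE 0.11, limma adjusted p = 0.265). The zinc-binding metallothioneins Mt1 and Mt3 also did not overlap, with Mt1 at 1634.5 to 2742.3 TPM and at 1531.7, 1236.3, 1397.2 and 1021.9 TPM. Oxidative phosphorylation subunits (34 genes, median -0.12) and cytosolic ribosomal proteins (35 genes, median 0.03) had none without overlap. Apoe, the main lipid carrier of astrocytes, averaged 5557 ± 763 TPM (SD, n = 5) in controls against 4289 ± 582 TPM (SD, n = 4) in KO libraries, and the groups overlapped. Its log2 fold change was -0.37 in astrocytes and 2.79 in microglia (difference -3.16, limma adjusted p = 1.12e-07).

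**Figure D5:**
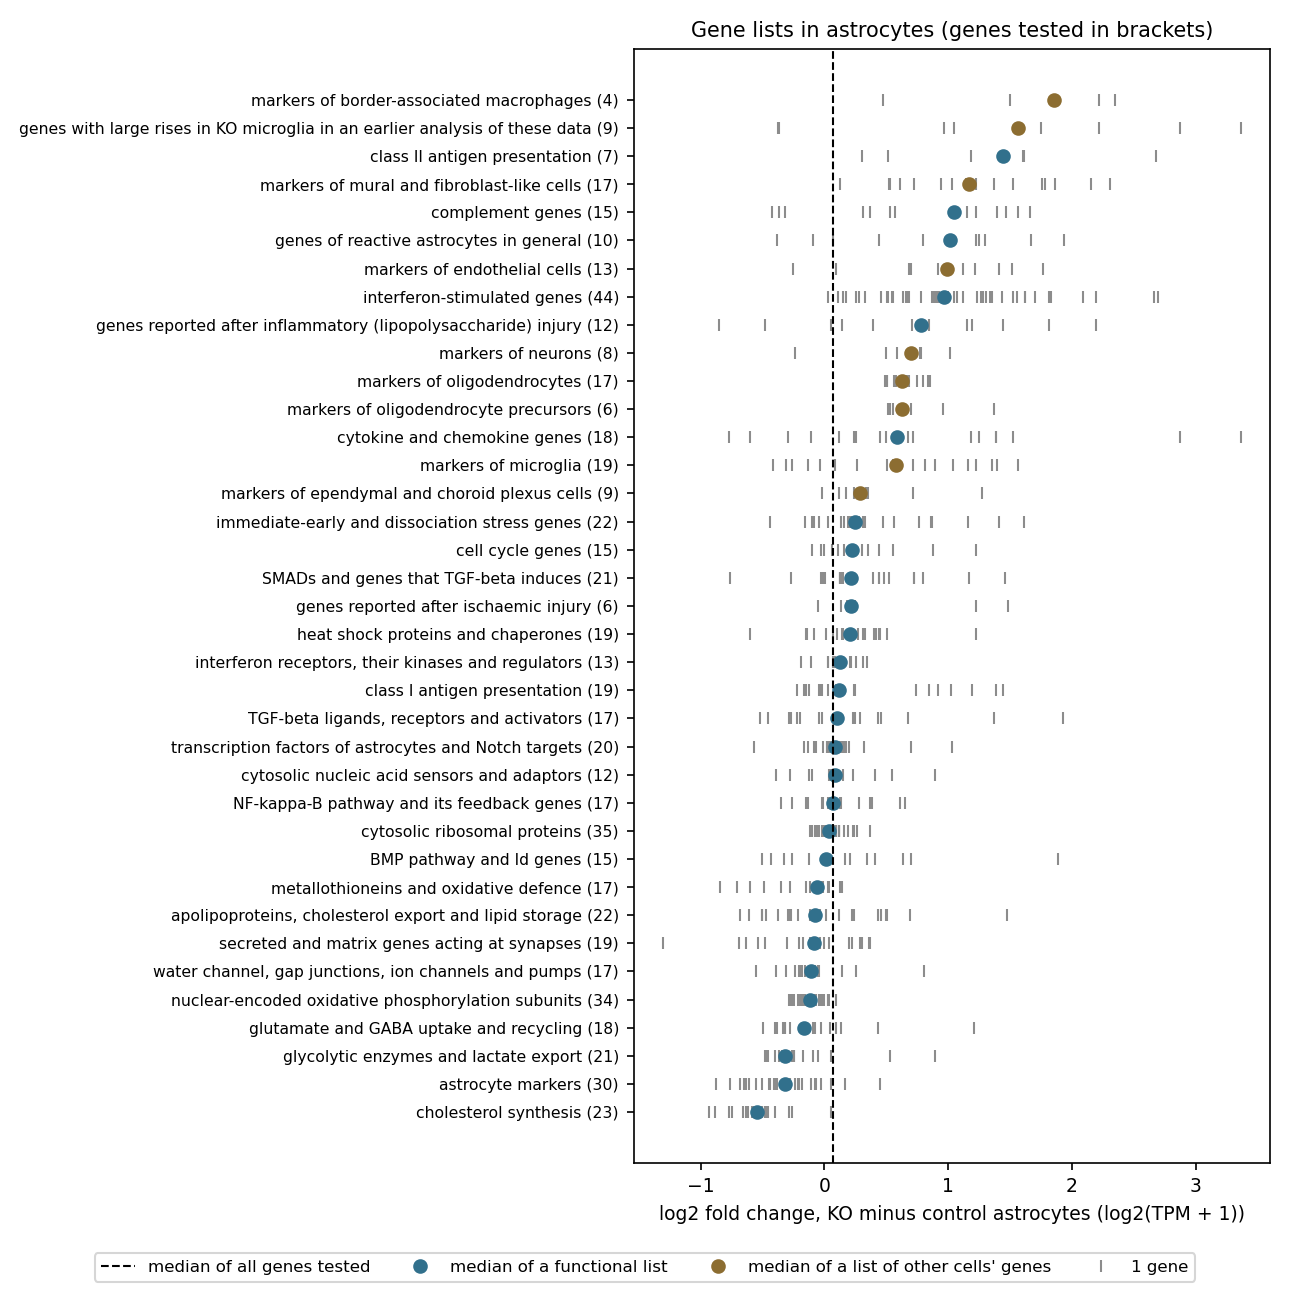
Log2 fold change of each tested gene (ticks) and the median (circles) of 37 gene lists in astrocytes of KO against control mice, beside the median of all genes tested (dashed line, 0.07). The median is 0.96 for interferon-stimulated genes and -0.55, the lowest of the 37, for cholesterol synthesis. Class II genes (1.45), complement genes (1.05) and general reactive genes (1.01) have higher medians than the interferon-stimulated list. Lists of other cells' genes (brown) are high as well, with border-associated macrophage markers at 1.86, genes with large rises in KO microglia at 1.57, mural markers at 1.17 and endothelial markers at 0.99.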

How the data were processed

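RNA of sorted astrocytes and microglia was sequenced in 18 libraries, of which 9 astrocyte libraries were compared. The authors deposited TPM values per gene with 1 decimal. Per the submitters' processing notes, the tools were STAR 2.6.1e, featureCounts 1.6.2, Trim Galore 0.4.2 and cutadapt 1.9.1, with the mm10 genome. How reads shared by several genes were counted is not given in the sources used here. TPM keeps no read depth, so no counting interval is given.

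Values were taken as log2(TPM + 1), which understates the change of low genes. Genes at 1 TPM or more in at least 4 of the 9 libraries entered a linear model in limma (version 3.58.1, R 4.3.3) whose prior variance followed the mean level, and p-values were adjusted by the Benjamini-Hochberg method over all 15231 genes, with a threshold of 0.05. The difference of the KO effects in the cell types was fitted over 17 libraries. 1 library whose labels disagree was left out of every comparison. The procedure was tested on simulated data. Promoter windows are from RefSeq, and 10599 tested genes had one.

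The members and the 38 gene lists were chosen with earlier results of these data known. Genes named by rule were Tgfb1, Usp18, Gfap, Slc1a2 and Aldoc, then, for each direction, non-overlapping genes whose higher group averaged 5 TPM or more, taken in order of p up to 8, and the 2 genes of each list with the smallest p. Some genes that the rule names are not reported here. Other genes named were chosen after their values were seen. Alternatives covered the pseudocount, filter, scaling, variance model, marker covariates, the animals used as controls and single libraries left out.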

Additional observations from a re-analysis of the deposited data

Results flagged for a closer look

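Single libraries stood far from the rest of their group in 8 of the 172 sets of values checked, and chance alone gives about 1 in 20. Among controls, Ifit3 was at 25.0 TPM in library 3 against 17.7 to 19.5 TPM in the others, and Zc3hav1 was at 2.9 TPM in library 1 against 1.8 to 2.0 TPM. Ccl7 was at 2.2 TPM in control library 5 and Nkg7, a granule protein of cytotoxic lymphocytes, at 2.0 TPM in control library 4. Among KO libraries, library 1 held Ccl12 at 125.5 TPM and Ms4a7 at 16.3 TPM, and it was the library with the highest microglial markers. KO library 4 held Egr2, an early response gene, at 84.8 TPM against 39.7 to 39.9 TPM in the others, and Enpp6, a gene of newly formed oligodendrocytes, at 22.1 TPM against 7.9 to 9.7 TPM, and it was the library with the highest oligodendrocyte markers.

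The KO effect differed between astrocytes and microglia in 10 of the 14 genes examined (limma test of the difference, adjusted by the Benjamini-Hochberg method over 17087 genes). Over all genes 15.5% differed. The 14 genes were named from these same data, so their count is not read as a result about a set. In astrocytes minus microglia, the log2 difference was 1.01 for Psmb8, -1.73 for Oasl2, -1.05 for Rtp4, -1.58 for Ifit3, -1.78 for Irf7, -2.06 for Iigp1 and -1.39 for Tm7sf2. For genes with large effects in microglia it was -2.54 for Ccl7, -2.58 for Ms4a7 and -4.08 for Cd300ld, and these 3 were at most 2.2 TPM in control astrocytes. All 3 were listed for large rises in KO microglia in an earlier analysis of these data, a choice that favours negative differences. With a pseudocount of 0.1 TPM the differences for Oasl2, Irf7, Iigp1, Ccl7, Cd300ld and Ms4a7 no longer passed the threshold.

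The library left out of every comparison has a title that names astrocytes and a code that names microglia. It had P2ry12 at 3369.5 TPM and Slc1a2 at 0.5 TPM, where the 9 astrocyte libraries had 6.7 to 14.7 TPM and 190.8 to 426.3 TPM.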

How the results depend on the processing

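Usp18 was higher in KO astrocytes under every alternative run. It no longer passed the limma adjusted threshold with only the Xist-positive controls (log2 fold change 3.01), with KO libraries 1 and 3 left out (2.39), or with the mural (2.36), oligodendrocyte (2.89), microglial (2.63) or endothelial (2.44) marker level as a covariate, nor with KO library 1 and control libraries 1 and 2 left out (2.38). In each of these 7 settings 0 genes were called, with 2318, 1124, 733, 582, 1679, 918 and 955 genes at an unadjusted p under 0.05. The microglial and endothelial covariates and the last of these settings were chosen after seeing the data. Leaving out 1 library at a time gave Usp18 values of 2.53 to 2.87, with 2.53 to 2.61 where the call was lost (without control 1, KO 1 or KO 3), and 0 to 5 genes called, 0 to 4 of them higher and 0 to 1 lower. Where 0 were called, 1590, 1492 and 1488 genes had an unadjusted p under 0.05. Calls numbered 3, all higher, with no filter. They numbered 3, all higher, with only the Y-positive controls, and were Usp18, Xist and Tsix, the latter pair with KO mice that have Xist RNA set against controls without it. They numbered 65 (61 higher, 4 lower) with Y-linked RNA as a covariate. No KO library has Y-linked RNA, so in that fit the KO effect is measured against the Xist-positive controls only. Its Usp18 log2 fold change, 3.01, is the one found with those controls alone, where 0 genes were called. In 1 fit over both cell types there were 88 (63 higher, 25 lower).

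Control and KO mice share replicate numbers but are different animals, and same-numbered libraries did not deviate together (correlations -0.09, 0.18, -0.08 and 0.01). With the number as a replicate block Usp18 had a log2 fold change of 2.78 (limma adjusted p = 0.0948) and 0 genes were called, with 2021 at an unadjusted p under 0.05. With the animal as a block across cell types the Usp18 difference was 0.12.

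Signs turned in few cases. Hsp90aa1 became -0.051 with the oligodendrocyte covariate, and Ly6c2 -0.12 and -0.044 with the mural and endothelial ones. The difference between cell types turned for Usp18 with a pseudocount of 5 TPM (-0.17) and without astrocyte control 2 (-0.00089), astrocyte KO 3 (-0.019) or microglia control 5 (-0.016), within a range of -0.019 to 0.33 with 1 library left out, and with a pseudocount of 0.1 TPM for Ccl12 (0.56). The cause was not tested. Of the list medians recomputed, 894 stayed within the spread between replicates and 169 moved by more. TPM gives no read depth, so its limit on low genes is unknown.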
